A study of Mus musculus with 30 samples.

Results

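Monocyte RNA was followed through 8 genes, Ly6c2, F13a1, Ccr2, Ms4a6c, Csf1r, Cd14, Lyz1 and Lyz2, in 8 organs of mice with and without arthritis. The genes were taken by name, through their Entrez numbers, and all 8 were found among the 23013 gene rows of the table. Gene expression had been measured by Seq-Well, in which single cells and barcoded beads share small wells, in 30 libraries of 8 male DBA1/J mice. The 4 CIA mice (collagen-induced arthritis) had received 100 µg of bovine collagen II in complete Freund's adjuvant, with a second dose in incomplete adjuvant on day 20. Arthritis was scored 8 in S1 and S2, 3 to 4 in S6 and 3 in S7, and 0 in the 4 controls (H3, H4, H6, H7). By the study's methods the controls were given PBS, and all mice were adults of the same inbred strain. Blood came from H3, H4, H6 and H7 against S2, S6 and S7, and lymph node from H3, H4, H6 and H7 against S1, S2 and S7. Joint (H3 against S1) and lung, muscle, skin, spleen and thymus (H6 against S1) had 1 mouse per state and therefore no replicates. Blood meant mononuclear cells from a density gradient after red cell lysis, not whole blood, and all organs had been frozen and thawed.

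Monocytes are made in bone marrow, circulate in blood and enter inflamed tissue, where they can become macrophages. In the mouse the classical, inflammatory kind is told from the patrolling kind by high Ly6C on its surface and by the chemokine receptor CCR2, which it needs to leave the marrow. Ly6c2 and Ms4a6c encode surface proteins, and F13a1 encodes the A subunit of coagulation factor XIII, which cross-links fibrin. Csf1r encodes the receptor for CSF1, on which monocytes and macrophages depend for survival, and Cd14 the co-receptor that hands lipopolysaccharide to TLR4. Lyz1 and Lyz2 encode lysozymes, enzymes that cut bacterial cell walls. Lyz2 is made by neutrophils as well as by monocytes and macrophages, and Ly6C is also carried by some T cells and endothelial cells, so neither gene alone marks a monocyte.

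Both the lysozymes and Ly6c2 have near-identical neighbours, and because Seq-Well reads the 3′ end of a transcript, this bears on how far their values can be told apart. The coding sequences of Lyz1 and Lyz2, both of 447 bases, were 95.1% identical in the GENCODE annotation of GRCm38, with 22 differing bases. Only 2 of these lie in the last 150 coding bases, which are shown 5′ to 3′ to let the pair be compared, with the differing bases in capitals (Lyz1 at chr10:117287797-117292868 and Lyz2 at chr10:117277331-117282321, minus strand).
Lyz1: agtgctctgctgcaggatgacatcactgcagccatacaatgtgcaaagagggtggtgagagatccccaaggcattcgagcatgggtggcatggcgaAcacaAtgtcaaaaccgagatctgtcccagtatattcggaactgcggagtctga
Lyz2: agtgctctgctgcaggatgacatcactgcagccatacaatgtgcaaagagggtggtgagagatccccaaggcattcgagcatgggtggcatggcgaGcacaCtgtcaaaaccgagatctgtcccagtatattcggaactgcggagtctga
Ly6c2 has the paralog Ly6c1, whose coding sequence has the same 396 bases and was 97.7% identical, with 9 differing bases. The last 150 coding bases, again with differing bases in capitals, hold 3 of them (Ly6c1 at chr15:75044018-75048830 and Ly6c2 at chr15:75108158-75111970, minus strand).
Ly6c1: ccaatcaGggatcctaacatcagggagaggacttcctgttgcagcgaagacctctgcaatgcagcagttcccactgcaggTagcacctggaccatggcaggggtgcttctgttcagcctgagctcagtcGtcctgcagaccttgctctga
Ly6c2: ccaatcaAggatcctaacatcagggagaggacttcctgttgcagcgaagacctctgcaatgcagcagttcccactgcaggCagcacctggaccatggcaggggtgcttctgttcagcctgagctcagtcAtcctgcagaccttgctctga
Of all stretches of 50 bases in the last 300 bases of the transcript, 21.9% were shared between Lyz1 and Lyz2 and 29.9% between Ly6c2 and Ly6c1. The values within each pair are therefore uncertain to the extent that reads from shared stretches were assigned to either gene.

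Of the other members, Ms4a6c (chr19:11469366-11482192) shared 9.16% of such stretches with Ms4a6b. F13a1 (chr13:36867178-37050244), Ccr2 (chr9:124101950-124113557), Csf1r (chr18:61100598-61132149) and Cd14 (chr18:36725067-36726798) shared 0%. Genes on the opposite strand overlap F13a1 (Gm49144 and Gm30489), Ms4a6c (BE692007) and Csf1r (Hmgxb3), and Mir6983 lies within Csf1r on the same strand. Whether the counting used strand is not given in the sources used here.

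The deposited values are whole-number sums over a barcode and its nearest neighbours, so they are called units here and not counts. The libraries held 27 to 934 barcodes and 217494 to 7886790 units. Units were summed per mouse and organ and scaled to units per 1000000 (UPM) by a trimmed mean of log ratios, which gave 26 profiles. Libraries differed in rare genes: genes whose largest value was 1 made up 5.25% to 21.3% of the genes above 0 in 19 libraries and 37.1% to 58.1% in the other 11. As labels for this share, the 19 are called thinned here and the 11 are said to have kept their rare genes. The cause of the difference was not tested. A value of 0 is therefore given as listed at 0, with no detection limit. Titles ended in CIA or 2CIA, and this suffix was the only sign of a batch. The suffix was 2CIA for each of the 3 CIA libraries of blood and for 2 of its 5 healthy libraries.

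Across healthy organs the members fell into different orders. Lyz2 was highest in lung (17564 UPM), followed by muscle (4985 UPM), joint (4389 UPM), spleen (1593 UPM) and blood (1229 ± 547 UPM, SD, n = 4). It was lower in lymph node (212 ± 174 UPM, n = 4), skin (89.1 UPM) and thymus (77.0 UPM). Lyz1 was also highest in lung, at 1194 UPM, was 717 UPM in joint and was listed at 0 in thymus. Spleen and blood, neighbours in the order of both lysozymes, lay within the spread of the blood mice, since healthy blood ran from 802 to 2025 UPM for Lyz2 and from 40.7 to 258 UPM for Lyz1.

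Cd14 was 916 UPM in healthy lung, 656 UPM in joint and 386 UPM in muscle, against 5.14 to 57.4 UPM in blood. The spleen (24.6 UPM) and skin (34.5 UPM) values lay within that range. Csf1r was 48.7 UPM in healthy lung, 19.6 UPM in joint and 12.3 UPM in spleen, and it was listed at 0 in healthy muscle, skin and thymus. In blood its 4 healthy values ran from 0 to 50.6 UPM, so lung, joint and spleen did not stand apart from blood beyond its spread. Csf1r totalled 508 units over all libraries and was above 0 in 12 of 30.

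The order of the monocyte surface genes was not that of the lysozymes. Ccr2 was 96.1 UPM in healthy spleen, 94.0 UPM in joint and 54.5 to 132 UPM in blood, so these 3 organs overlapped. It was 14.4 to 42.4 UPM in lymph node and 5.27 UPM in thymus. Ms4a6c was 81.9 UPM in healthy muscle, 50.9 UPM in spleen and 50.5 UPM in lung, where its ranges were 29.2 to 59.6 UPM in blood and 28.1 to 62.7 UPM in lymph node. The muscle value alone lay above both ranges, joint was at 18.6 UPM, and the gene was listed at 0 in skin of both states. F13a1 was 89.7 UPM in healthy joint and 64.4 UPM in healthy thymus, and it was listed at 0 in healthy lung, skin and lymph node. Ly6c2 was 365 UPM in healthy muscle, 316 UPM in joint and 117 to 258 UPM in lymph node, against 0 to 64.0 UPM in blood, and it was listed at 0 in healthy lung. The lung zeros of Ly6c2 and F13a1 came from a library that kept its rare genes (55.2% of genes had a largest value of 1), whereas all 9 lymph node libraries and both thymus libraries were thinned.

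**Figure D1:**
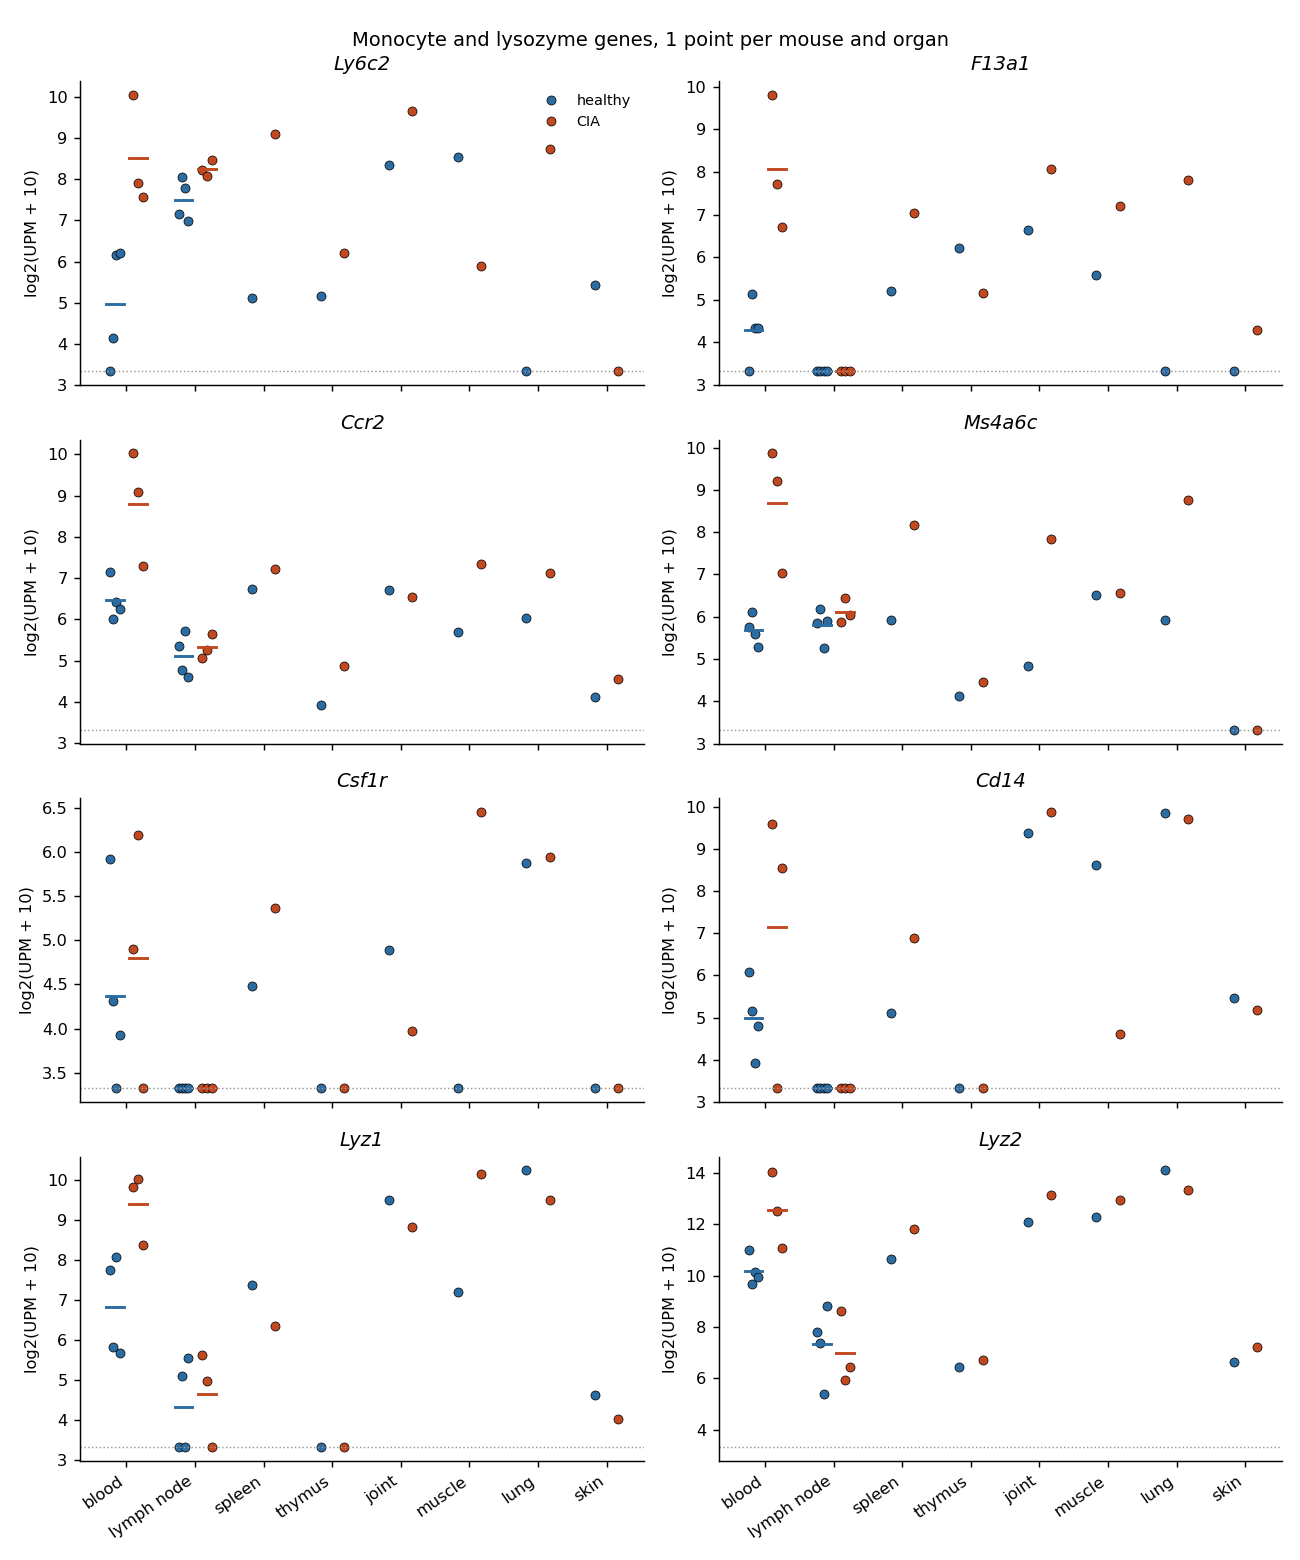
Level of each member on the log2(UPM + 10) scale, with 1 point per mouse and organ and a horizontal bar for the mean where a group has several mice. The dotted line marks genes listed at 0. In blood, all 3 CIA points lie above all 4 healthy points for 6 genes, and in lymph node F13a1, Csf1r and Cd14 lie on the dotted line in all 7 mice.

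The first question was how the blood levels of these genes compared between the states. For 6 of the 8 genes, Ly6c2, F13a1, Ccr2, Ms4a6c, Lyz1 and Lyz2, every CIA mouse lay above every healthy mouse, by fitted differences of 2.34 to 3.79 on the log2(UPM + 10) scale. Among all 4789 genes tested, 2.34% showed this non-overlap with CIA higher and 7.29% with CIA lower. None of the members passed an adjusted p of 0.05 in limma with Benjamini-Hochberg adjustment, and 0.167% of all genes tested did (8 genes). In bulk sums of this kind, more cells of a type and more RNA per cell cannot be told apart. The p-values compare 3 mice with 4.

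Ly6c2 was 1058, 232 and 179 UPM in S2, S6 and S7, and 0, 7.51, 61.2 and 64.0 UPM in H3, H4, H6 and H7. The groups did not overlap, and S2 was the highest. How far S2 lay above the other CIA mice depended on the scaling: with total scaling the CIA values were 634, 366 and 230.5 UPM. The fitted difference was 3.56 ± 0.87 (SE) on the log2(UPM + 10) scale (limma, adjusted p = 0.0866). Its paralog Ly6c1 was 206, 0 and 48.6 UPM in the CIA mice and 0 to 25.1 UPM in the healthy mice, with a difference of 1.62 ± 1.03 (limma, adjusted p = 0.600), its healthy mean of 8.84 UPM lying under the filter. The 2 paralogs were thus both highest in S2, but S6 had Ly6c2 and no listed Ly6c1.

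F13a1 was 885, 199 and 94.6 UPM in S2, S6 and S7, and 0, 25.4, 10.3 and 10.3 UPM in H3, H4, H6 and H7. Its healthy mean of 11.5 UPM lay under the filter of 25 UPM, so it entered the fit only through the CIA mice. The difference was 3.79 ± 0.96 (limma, adjusted p = 0.0961), the largest of the 7 fitted members. Ms4a6c was 921, 580.3 and 120.2 UPM in S2, S6 and S7, and 29.2 to 59.6 UPM in the healthy mice. The groups were apart, with a difference of 3.01 ± 0.73 (limma, adjusted p = 0.0866).

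Ccr2, the receptor by which classical monocytes follow the chemokine CCL2, was 1029.8, 532 and 147 UPM in S2, S6 and S7. In H3, H4, H6 and H7 it was 132, 54.5, 76.1 and 65.9 UPM. Here S7 lay just above the highest healthy mouse, and the difference was 2.34 ± 0.67 (limma, adjusted p = 0.228). Ccl2 itself was 438, 111 and 53.7 UPM in the CIA mice and 0 to 11.3 UPM in the healthy mice (difference 3.57 ± 1.02, limma, adjusted p = 0.234). Like F13a1, Ccl2 entered the fit only through the CIA mice.

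The lysozymes had the highest units in S2 or S6. Lyz2 was 16649.8, 5882 and 2161 UPM in S2, S6 and S7, and 2025, 802, 1125 and 965 UPM in H3, H4, H6 and H7. S7 exceeded H3 by a small margin only, and the difference was 2.36 ± 0.60 (limma, adjusted p = 0.0961). Lyz1 was 888, 1022 and 318 UPM in the CIA mice and 203, 46.5, 258 and 40.7 UPM in H3, H4, H6 and H7 (difference 2.57 ± 0.65, limma, adjusted p = 0.0961). As a share of Lyz1 and Lyz2 together, Lyz1 made up 5.07%, 14.8% and 12.8% in S2, S6 and S7 and 4.04% to 18.7% in the healthy mice, so the balance of the pair overlapped between the states.

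For Cd14 and Csf1r the states overlapped in blood. Cd14 was 757 UPM in S2 and 367 UPM in S7 but was listed at 0 in S6, against 5.14 to 57.4 UPM in healthy mice (difference 2.16 ± 1.11, limma, adjusted p = 0.531). The overlap of Cd14 rested on S6, a thinned library of 22 distinct profiles. Without S6 the Cd14 difference was 4.08 ± 0.82 and passed (limma, adjusted p = 0.0487), without S2 it was 0.95 and without S7 1.46. Csf1r was 19.8, 63.3 and 0 UPM in S2, S6 and S7 and 0 to 50.6 UPM in healthy mice. Its mean stayed under the filter, and an exact two-sided permutation test over the 7 mice gave p = 0.657 (the smallest p this design can give is 0.0286).

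Marker RNA of other cell types in blood moved in different ways. The 11 neutrophil markers summed to 106552, 3311 and 57366 UPM in S2, S6 and S7 and to 1215 to 6021 UPM in healthy blood, with 3 to 11 of the 11 above 0 in either state. S6 thus lay within the healthy range. Barcodes with at least 1% of their units in these markers made up 59.0%, 17.7% and 79.4% of the 3 CIA blood libraries and 0% to 7.82% of the barcodes of a healthy mouse. Of the 7 macrophage markers in the table, all were listed at 0 in the CIA blood libraries and 1 was above 0 in healthy blood, at 5.17 UPM in H4. Erythroid markers ran from 44554 to 631985 UPM in CIA blood and from 39294 to 1182669 UPM in healthy blood. Lymphocyte markers were lower in CIA blood for all 11 tested: the median differences were -2.48 over 4 T cell markers, -2.11 over 2 NK cell markers and -1.15 over 5 B cell markers, and none passed the adjusted test. Most genes were lower in this fit: 31.3% of all genes tested were higher in CIA blood, and the median of all genes was -0.47. The 6 T cell markers summed to 209, 0 and 128 UPM in S2, S6 and S7 and to 454 to 575 UPM in healthy blood, with no overlap. The NK cell sums (0 to 313 against 109 to 513 UPM) and B cell sums (695 to 1745 against 702 to 3964 UPM) overlapped. The part of the lymphocytes in the members' differences was not tested.

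Without the neutrophil-rich barcodes, the differences were smaller for all 7 fitted members. They were 2.71 for Ly6c2, 2.5 for F13a1, 1.67 for Ms4a6c, 1.22 for Lyz2, 0.98 for Ccr2, 0.66 for Lyz1 and 0.23 for Cd14, with limma adjusted p from 0.352 to 0.953. S2, with 71 of its 173 barcodes kept, stayed high, at 1295 UPM for F13a1 and 1414 UPM for Ccr2. S7 kept 20 of 97 barcodes and was then listed at 0 for F13a1, Ccr2, Ms4a6c, Csf1r, Cd14 and Lyz1, with Ly6c2 at 54.4 UPM and Lyz2 at 306 UPM, so the states overlapped for every member. S2 and S6 (51 of 62 barcodes kept) still lay above every healthy mouse for Ly6c2, F13a1, Ccr2, Ms4a6c, Lyz1 and Lyz2. The overlap of these genes thus rested on S7. Without the erythroid-rich barcodes (10% of units or more) the differences were 1.97 to 4.48 (limma adjusted p from 0.153 to 0.521). This left 16 of 173 barcodes in S2 and 13 of 27 in H3. The states then stayed apart for Ly6c2, F13a1, Ms4a6c, Lyz1 and Lyz2 and overlapped for Ccr2, where S7 was at 135 UPM and H3 at 169 UPM. The gap of Lyz1 was between 303 UPM in the lowest CIA mouse and 299 UPM in the highest healthy mouse. How far the neutrophil share accounts for the blood differences was not tested.

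**Figure D2:**
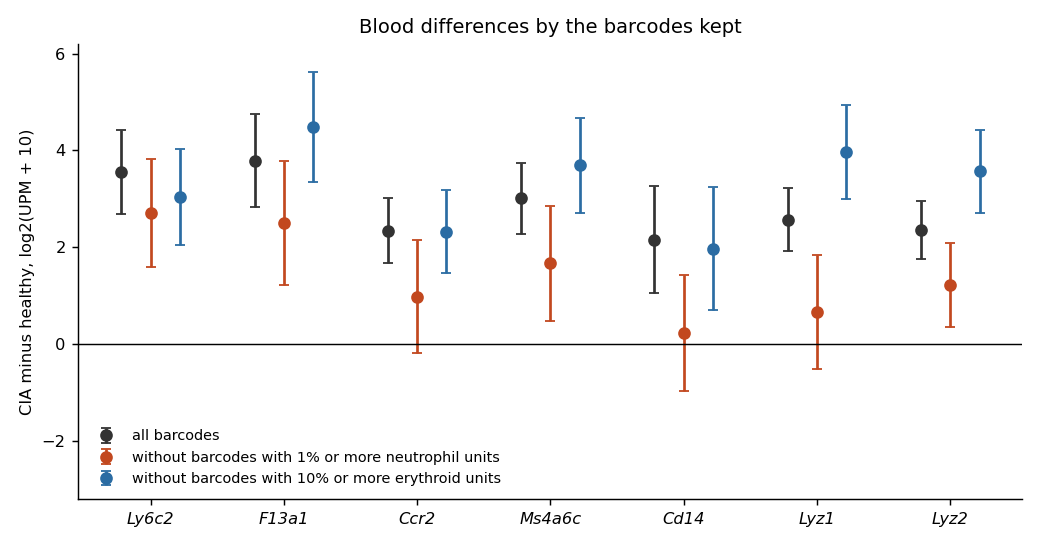
Fitted difference between CIA and healthy blood for the 7 members that passed the filter, with SE bars, on the log2(UPM + 10) scale, using all barcodes, those under 1% of neutrophil units or those under 10% of erythroid units. Every value is above 0, and the values without neutrophil-rich barcodes are the lowest of the 3 for each gene.

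Among libraries titled 2CIA, which leaves H3 and H4 against S2, S6 and S7, the difference of Ly6c2 was 5.18 ± 1.07 (limma, adjusted p = 0.0130) and those of the other 6 members were 1.82 to 3.62, none passing the test. In this setting Ly6c2 was listed at 0 in both healthy mice, so it entered the fit only through the CIA mice and the size of its difference depends on the pseudocount. Without S2 the differences were 0.95 to 2.92, with limma adjusted p from 0.097 to 0.759. Calls for single members appeared in several other settings, and none of the 7 turned its direction in blood in any of the 18 settings tried.

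In lymph node, F13a1, Csf1r and Cd14 were listed at 0 in all 7 mice, and so were the 7 macrophage markers. Ly6c2 was 291, 262 and 345 UPM in S1, S2 and S7, and 133, 258, 209.9 and 117 UPM in H3, H4, H6 and H7. The CIA mice lay above the healthy ones, H4 only just below S2, with a difference of 0.77 ± 0.33 (limma, adjusted p = 0.979). Among 4964 genes tested, 3.44% had all CIA mice higher and 2.56% all lower, and 0.0201% (1 gene, Ifi27l2a) passed the adjusted test. Ly6c1 overlapped, at 81.6, 69.9 and 102 UPM against 37.0 to 91.7 UPM. Of other cell types, 0 of 5 erythroid markers (median -3.75) and 1 of 6 T cell markers (-0.35) were higher in CIA lymph node. So were 2 of 2 tested neutrophil markers (1.26) and 4 of 5 B cell markers (0.32), beside 57.3% of all genes. None of these markers passed the adjusted test, and their part in the values was not tested.

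The other lymph node members overlapped between the states. Ccr2 was 23.4 to 40.0 UPM in CIA and 14.4 to 42.4 UPM in healthy mice (difference 0.21 ± 0.53, limma, adjusted p = 0.999). Ms4a6c was 48.7 to 76.9 UPM against 28.1 to 62.7 UPM (0.32 ± 0.37, limma, adjusted p = 0.979). Lyz2 was 382, 51.4 and 76.3 UPM in S1, S2 and S7 and 31.4 to 446 UPM in healthy mice (-0.35 ± 0.68, limma, adjusted p = 0.997), and this difference changed sign in 5 of 17 other settings. Lyz1 was above 0 in 2 mice of each state and under the filter (exact two-sided permutation p = 0.829).

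**Figure D3:**
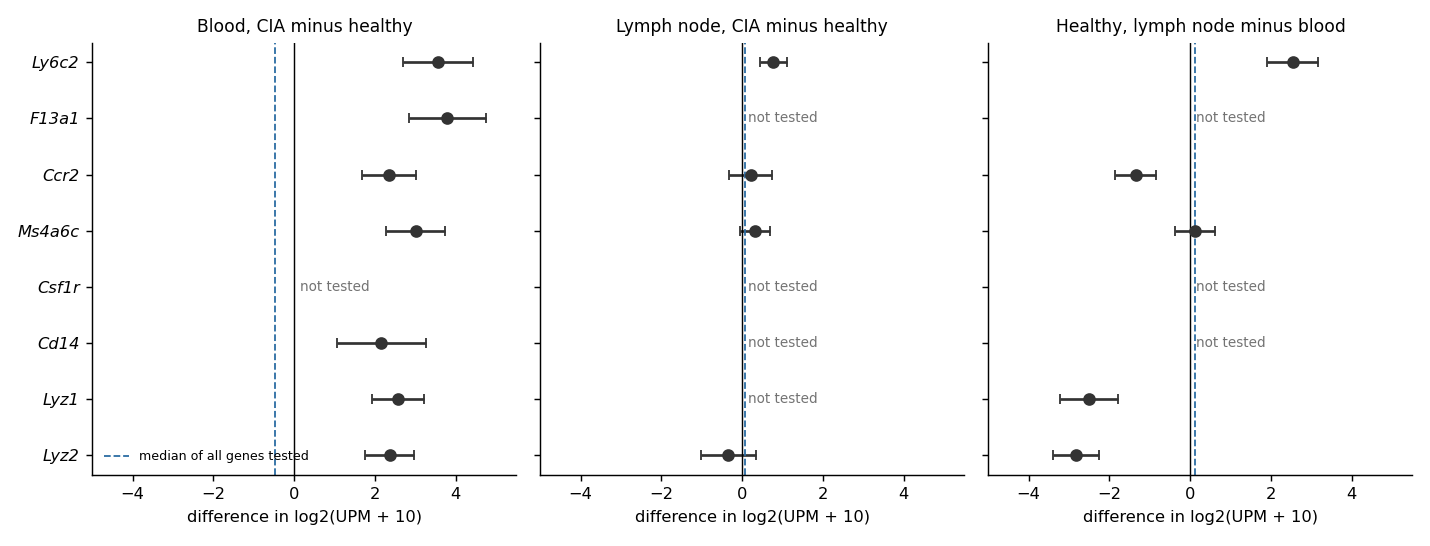
Fitted difference of each member in 3 comparisons, on the log2(UPM + 10) scale with SE bars, where the dashed line is the median of all genes tested. In blood the 7 tested members lie between 2.16 and 3.79, to the right of the median of -0.47, whereas in lymph node the 4 tested members lie between -0.35 and 0.77.

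Whether the difference between states itself differed between the organs was tested as an interaction over both organs. Of the 7 members in this fit, 3 entered through blood alone: F13a1 and Cd14 were listed at 0 in every lymph node, so that their interactions (-3.79 and -2.16) are their blood differences with the sign turned, and Lyz1 lay under the filter in lymph node. For the 4 members measured in both organs the interaction was -2.79 ± 0.95 for Ly6c2, -2.72 ± 1.00 for Lyz2, -2.69 ± 0.86 for Ms4a6c and -2.13 ± 0.88 for Ccr2, a negative value meaning a smaller difference in lymph node. None of these passed (limma, adjusted p from 0.496 to 0.521), and 0% of the 4949 genes tested did. The median interaction of all genes was 0.58. With the mouse as a block, since H3, H4, H6, H7, S2 and S7 gave both organs, these 4 members ran from -3.53 to -1.86 and again none passed, with 1 gene of all tested passing.

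The healthy mice also allowed lymph node to be set against blood of the same 4 animals. Ly6c2 was higher in lymph node in all 4 mice (117 to 258 UPM against 0 to 64.0 UPM), by 2.54 ± 0.63 (limma, adjusted p = 0.196), and Ly6c1 by 1.90 ± 0.65 (limma, adjusted p = 0.249), which entered only through lymph node. T cell markers moved the same way, 6 of 6 being higher in lymph node (median 1.51, sums of 1269 to 2301 against 454 to 575 UPM), and erythroid markers the other way (median -4.83). Of 4 tested neutrophil markers 0 were higher in lymph node (median -2.44), and of 5 B cell markers 0 were (median -1.10). Among all genes tested 55.4% were higher in lymph node. The part of these cell types in the values of the members was not tested. Lyz2, Lyz1 and Ccr2 were each lower in every lymph node than in every blood sample, by differences of -2.83 ± 0.58 (adjusted p = 0.184), -2.50 ± 0.72 (adjusted p = 0.220) and -1.35 ± 0.51 (adjusted p = 0.262) in limma. Lyz1 entered this fit only through blood, since its lymph node mean of 15.3 UPM lay under the filter. Ms4a6c stayed at 0.11 ± 0.49 (limma, adjusted p = 0.942). Such non-overlap was found for 3.33% of 5225 genes with lymph node higher and 3.90% with lymph node lower, and 0.0383% (Gzma and Il1b) passed the adjusted test. With the mouse as a block Lyz2 passed (limma, -2.83 ± 0.49, adjusted p = 0.0102) and 10 genes of all tested did. Cd14, under the filter, was above 0 in all 4 blood samples and in no lymph node (exact two-sided permutation p = 0.0286). F13a1 and Csf1r were above 0 in 3 of 4 blood samples and no lymph node (p = 0.143 each in the exact permutation test). These permutation tests left the pairing of the 4 mice unused, and 0.0286 is the smallest p of the unpaired test only.

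Because units are sums over neighbouring barcodes, the share of barcodes above 0 does not give the share of cells that express a gene. In lymph node of the 7 mice, 52.2% to 84.8% of barcodes had units of Ly6c2, against 9.24% to 27.4% for Ccr2. The 10% of barcodes richest in the 4 NK cell markers held 8.42% to 20.9% of the Ly6c2 units, where an even spread gives 10%. The shares were 7.43% to 16.8% for T cell markers, 3.94% to 14.4% for B cell markers, 4.03% to 15.2% for neutrophil markers and 1.65% to 11.9% for the other members. Dendritic cell markers, ranked in 4 of the 7 mice, gave 7.22% to 19.8%. These ranges overlapped, and no marker set stood apart from the others in all mice. Lyz2 differed between mice. The 10% richest in neutrophil markers held 65.1% of its units in H7, 49.9% in S1 and 39.1% in S7. In the same mice the 10% richest in the other members held 65.8%, 45.7% and 30.4%, and erythroid markers gave 42.7% in H7 and B cell markers 30.7% in S7. In H3 the 10% richest in neutrophil markers held 1.16% and the 10% richest in B cell markers 92.8%. In H4 no marker set held more than 23.1%, in S2 shares were 8.04% to 15.3%, and H6 had only 66 units.

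In the 6 organs with 1 mouse per state, values are given without a test. In spleen, Ly6c2 was 24.6 UPM in H6 and 538 UPM in S1, Ms4a6c 50.9 and 276 UPM, F13a1 27.1 and 122 UPM, Cd14 24.6 and 109 UPM, and Lyz2 1593 and 3576 UPM. Of these 5 genes, Ly6c2 and Cd14 passed the filter of 25 UPM only through S1. All 5 were over 2-fold higher in the CIA mouse on the log2(UPM + 10) scale, against 16.8% of the 5834 genes compared. Lyz1 went the other way, at 155 and 71.4 UPM, and was over 2-fold lower, as were 19.3% of genes. Lyz1 was thus 8.88% of the lysozyme pair in H6 and 1.96% in S1. Ccr2 (96.1 and 140.2 UPM) and Csf1r (12.3 and 31.3 UPM) stayed within 2-fold. Neutrophil markers summed to 4240.2 UPM in H6 and 105973 UPM in S1. Without the neutrophil-rich barcodes, which left 22 of 532 barcodes in S1, Cd14 was 28.2 and 36.4 UPM and Ccr2 85.7 and 410.4 UPM. Ly6c2 was then 19.8 and 940.3 UPM, Ms4a6c 41.4 and 647 UPM and Lyz2 759 and 2551 UPM. Cd14 was thus no longer over 2-fold higher, whereas Ccr2 and Csf1r (14.1 and 88.3 UPM) were, and F13a1 was further apart than with all barcodes. Lyz1 was 83.8 and 54.5 UPM and no longer over 2-fold lower.

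Lung had its own pattern. Ly6c2 and F13a1 were listed at 0 in H6 and reached 418 and 213 UPM in S1. Ms4a6c was 50.5 and 422 UPM and Ccr2 55.9 and 129 UPM. So 4 members were over 2-fold higher on the log2(UPM + 10) scale, as were 16.4% of 4467 genes. These 4 include Ly6c2 and F13a1, which were listed at 0 in H6 and passed the filter only through S1. The lysozymes, Cd14 and Csf1r did not follow: Lyz2 was 17564 and 10345 UPM, Lyz1 1194 and 709 UPM, Cd14 916 and 828 UPM and Csf1r 48.7 and 51.6 UPM. None of the members was over 2-fold lower, against 27.1% of genes. The 7 macrophage markers summed to 1167 UPM in H6 and 161 UPM in S1, and the lung epithelium markers to 18451 and 1625 UPM. The neutrophil markers summed to 427 and 11995 UPM, and neutrophil-rich barcodes made up 0% in H6 and 39.6% in S1. Without the neutrophil-rich barcodes S1 lung was still at 423 UPM for Ly6c2, 176 UPM for F13a1, 392 UPM for Ms4a6c and 129 UPM for Ccr2. The part of the macrophage and epithelial RNA in the lung values was not tested.

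In joint, the inflamed organ, Ly6c2 was 316 UPM in H3 and 797 UPM in S1, F13a1 89.7 and 257 UPM, Ms4a6c 18.6 and 219 UPM, and Lyz2 4389 and 9105 UPM. These 4 were over 2-fold higher, against 21.1% of 6259 genes, and none was over 2-fold lower, against 9.27%. Of these 4 genes, Ms4a6c passed the filter only through S1. Scaling to the plain total left only Ms4a6c over 2-fold higher (log2 difference 2.39) and put Lyz1 (-1.34) and Csf1r (-1.16) over 2-fold lower, whereas median-of-ratios scaling gave 4 higher and 0 lower. Cd14 was 656 and 930.1 UPM, and Lyz1 was 717 and 443 UPM. Ccr2 was 94.0 and 83.1 UPM and Csf1r 19.6 and 5.67 UPM. With distinct profiles counted once, Lyz1 turned from -0.68 to 0.25 on the log2 scale and Ccr2 from -0.16 to 0.82, and with total scaling Cd14 turned from 0.50 to -0.17, so no direction is given for these 3 genes in joint. Cd14 was 1.01 with distinct profiles, which made 5 members over 2-fold higher in place of 4. Neutrophil markers were 58724 UPM in H3 and 196718 UPM in S1, where 99.9% of barcodes passed 1% of neutrophil units, so that 1 barcode was left without them and their part in the joint values was not tested.

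In muscle the members went apart. Ly6c2 was 365 UPM in H6 and 49.1 UPM in S1, and Cd14 was 386 and 14.3 UPM. Lyz1 was 137 and 1117 UPM, Ccr2 41.9 and 153 UPM, F13a1 37.9 and 137 UPM, and Csf1r was listed at 0 in H6 and was 77.7 UPM in S1. Lyz2 was 4985 and 7851 UPM and Ms4a6c 81.9 and 83.9 UPM. So 4 members were over 2-fold higher and 2 over 2-fold lower, beside 30.4% and 23.1% of 5505 genes. Among them, Csf1r passed the filter only through S1 and Cd14 only through H6. Ly6c1 moved opposite to Ly6c2, at 39.1 and 519.7 UPM. In the same libraries the neutrophil markers were 110213 UPM in H6 and 16151 UPM in S1, the macrophage markers 0 and 837 UPM, and the fibroblast markers 513 and 10142 UPM. Without the neutrophil-rich barcodes Lyz2 was 1906 and 9787 UPM, further apart than with them, Ly6c2 was 185 and 31.9 UPM and Cd14 161 and 18.6 UPM. S1 muscle held 54 barcodes with 16 distinct profiles, and only its library kept the rare genes.

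In thymus F13a1 was 64.4 UPM in H6 and 25.7 UPM in S1 and Ly6c2 25.9 and 64.3 UPM, so 1 member was over 2-fold higher and 1 lower, beside 10.1% and 5.91% of 5465 genes. Cd14, Csf1r and Lyz1 were listed at 0 in both thymus libraries. The F13a1 units in thymus H6 lay in 52.8% of barcodes, and the 10% richest in the other members held 12.9% of them. In skin Ly6c2 was 33.3 UPM in H6 and listed at 0 in S1, the only member over 2-fold in either direction (0 higher and 1 lower). It lay under the filter there, as did all members but Cd14 and Lyz2, so it is not among the 6005 genes of which 13.3% were over 2-fold higher and 13.4% lower. Lyz2 was 89.1 and 137 UPM. Outside the joint, H6 libraries were titled CIA and S1 libraries 2CIA in these organs, so state and suffix cannot be told apart, and S1 is the same animal in all 6 organs.

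Within some libraries, the members differed in whether they shared barcodes with neutrophil RNA. In the 5 profiles with at least 100 units of all 7 genes other than Csf1r, barcodes were ranked by their share of neutrophil marker units. In CIA blood of S2, the top 10% held 0% of the units of F13a1 and Ccr2 and 1.56% of Ms4a6c. It held 15.7% of Cd14, and 9.79% of Lyz1 and 10.2% of Lyz2, which is near the 10% of an even spread. In CIA spleen of S1 it held 0% of Ccr2, 1.80% of Ms4a6c and 5.98% of F13a1, against 22.9% of Cd14, 46.6% of Lyz1 and 46.2% of Lyz2. In CIA joint of S1 and healthy muscle of H6, F13a1, Ccr2 and Ms4a6c were all at 0%, and Lyz2 was at 20.8% and 46.8%. Lung of S1 did not show this split, with 11.9% of Ccr2, 12.4% of F13a1 and 15.7% of Ms4a6c against 7.74% of Lyz2. Ly6c2 stood between the 2 sets, at 7.08% to 17.8%. Of the 2 CIA blood mice outside this set, S6 did not show the split either: the top 10% held 34.0% of F13a1, 28.0% of Ms4a6c and 25.8% of Ccr2, beside 32.0% of Lyz2. In S7 it held 9.04% of Ccr2 and 19.0% of Lyz2. Profiles with fewer of the genes were mixed. It held 74.4% of Ms4a6c beside 65.1% of Lyz2 in lymph node of H7 and 46.1% beside 49.9% in that of S1. It held 28.8% of Ccr2 and 58.9% of Lyz2 in spleen of H6, and 17.2% of Ccr2 in blood of H7. In joint of H3 it held 0% of F13a1 and Ccr2 and 35.9% of Lyz2.

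**Figure D4:**
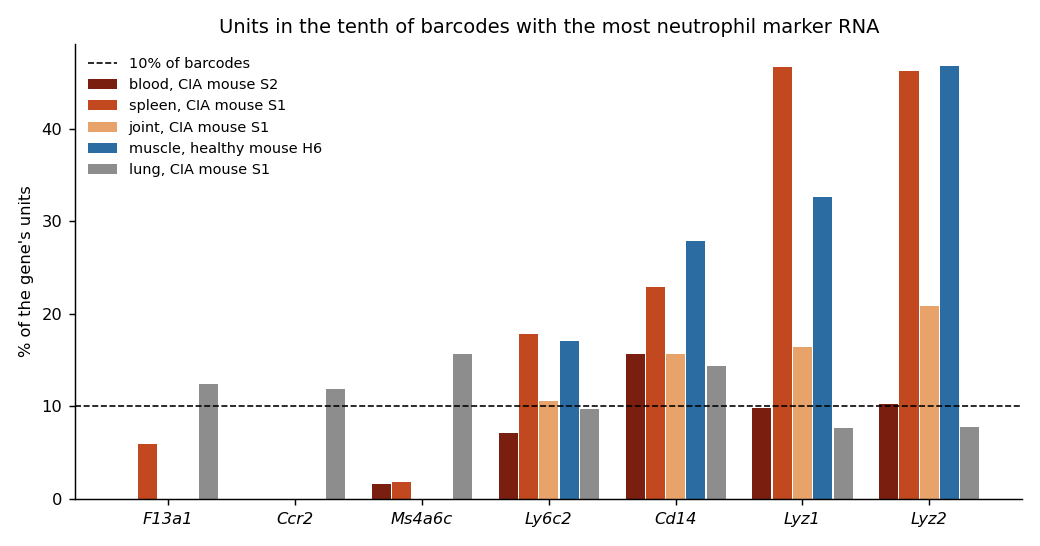
Percent of each gene's units that lay in the 10% of barcodes with the largest share of neutrophil marker units, as bars for the 5 profiles with at least 100 units of each gene. The dashed line is the 10% of an even spread. F13a1, Ccr2 and Ms4a6c lie at 0% to 5.98% in all profiles but lung, where they are 11.9% to 15.7%, and Lyz2 reaches 46.8%.

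Over the 26 mouse-organ profiles the lysozymes had the most alike pattern (Pearson r = 0.93 on log2(UPM + 10) values), followed by Ccr2 with Ms4a6c (0.81) and Lyz2 with Cd14 (0.77). Ly6c2 had the least in common with the rest, from -0.09 with Csf1r to 0.62 with Ms4a6c. These values are descriptions, since the profiles share mice, libraries and depth. How far the shared sequence of the lysozymes bears on their value was not tested. Among the 5481 genes that averaged 25 UPM or more, the 3 most like Lyz2 were Tyrobp (0.93), Lyz1 (0.93) and Clec7a (0.93), and the 3 most like Cd14 were Clec4d (0.94), Cxcl2 (0.92) and Clec4e (0.91). F13a1 was nearest to Alox5ap (0.84), Trem3 (0.84) and Fcgr3 (0.82), and Ccr2 to Ccl9, Fcer1g and Ms4a6c (0.81 to 0.82). For Ms4a6c the nearest were Ccr2 (0.81), Cyba (0.79) and Ifi27l2a (0.78), the gene called in both organs, and for Csf1r they were Ccl9 (0.81), Smpdl3a (0.77) and Lyz1 (0.75). For Lyz1 they were Lyz2, Clec7a (0.90) and Fcer1g (0.88). Ly6c2 was nearest to Sp140 (0.75), Ly6a2 (0.74) and Tpm3-rs7 (0.66).

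**Figure D5:**
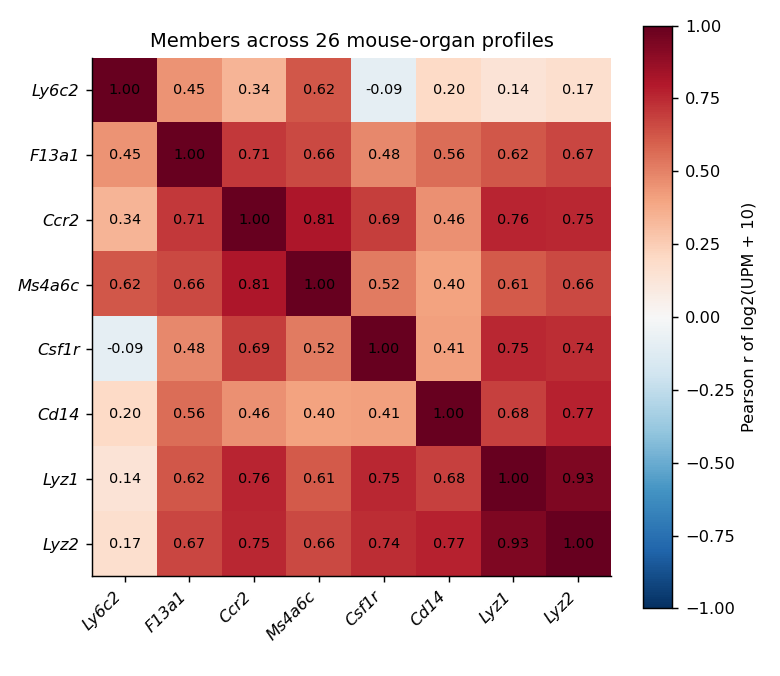
Pearson correlation of each pair of members over the 26 mouse-organ profiles, on the log2(UPM + 10) scale, with the value in each cell. Lyz1 and Lyz2 reach 0.93, and the row of Ly6c2 is the palest, from -0.09 to 0.62.

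Other genes of the monocyte programme were read from lists. Of 16 tested classical monocyte companions in blood, 13 were higher in CIA mice, beside 31.3% of all genes tested, and 3 rose past the test, beside 0.167% of all genes (median log2 difference 1.45, against -0.47 for all genes). These were Ifitm3, an antiviral membrane protein (3.92 ± 0.67, limma, adjusted p = 0.00400), Plac8 (3.69 ± 0.78, adjusted p = 0.0271) and Hp, which encodes haptoglobin and is also expressed by neutrophils (3.14 ± 0.68, adjusted p = 0.0328). These calls were lost without S2, without the neutrophil-rich barcodes, without the erythroid-rich barcodes, with a pseudocount of 1 and without the mean-variance trend, since 0 genes of all tested passed in limma in each of these settings. Of 6 tested genes of non-classical monocytes 2 were higher, beside 31.3% of all genes tested, and none passed (median -0.99, all genes -0.47). The transcription factor gene Pou2f2 at -2.10 and the integrin gene Itgal at -1.68 were at the lower end and Cebpb at 0.89 at the upper. Cebpb is in both lists and was also counted among the higher classical companions. In lymph node none of the 8 tested companions passed (median 0.23, all genes 0.07). Plac8 was 1.78 ± 0.37 (limma, adjusted p = 0.436) and S100a4 -1.45 ± 0.56 (adjusted p = 0.979).

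Of the pathway around CSF1R and CCR2, 7 genes were tested in blood, 5 were higher and none passed (median 0.63). Ccl2 and Tyrobp, an adaptor of myeloid receptors (1.52 ± 0.60, limma, adjusted p = 0.441), were at the top, and Csf1, the ligand of CSF1R, was at the bottom (-1.38 ± 0.98, adjusted p = 0.640). Around CD14 and TLR4, 5 of 7 tested genes were higher and none passed (median 0.78), with Tlr2 at 1.29 ± 1.02 and Tnf at -1.33 ± 1.01. Tlr4 itself was listed at 0 in 5 of 7 blood mice. Of the lysosomal and granule enzymes, 4 of 5 tested were higher and none passed (median 1.23), Ctsb, a lysosomal protease, being highest (2.48 ± 0.82, limma, adjusted p = 0.343). In healthy lymph node against healthy blood, Il1b was the only gene of these lists that passed (-3.90 ± 0.61, limma, adjusted p = 0.0262). It did not hold in 7 other settings, in which 0 genes of all tested passed: pseudocount 1, 2CIA only, without the erythroid-rich barcodes, without blood of H7 and without lymph node of H3, H4 or H6.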

How the data were processed

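Seq-Well libraries were labelled with organ, mouse and state, and samples were grouped by these labels. Per the study's methods, the authors aligned reads to GRCm38 with STAR, counted UMIs by the Drop-seq pipeline, filtered cells and smoothed the pilot values over nearest neighbours. The submitters' processing notes name bcl2fastq, Picard and STAR, and list the builds GRCh38 and mm9, which differ from the methods' GRCm38. The build behind the values is thus unsettled, and coordinates and shared sequence are given for GRCm38. The deposited values are this smoothed signal, in whole numbers, tested on the file: 8282 barcode columns held 4590 distinct profiles, with column totals from 4373 to 36435. A count model was therefore not used, and no interval for counting error was derived. 13 barcode sequences occurred in several libraries.

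Units were summed per mouse and organ and scaled to UPM by a trimmed mean of log ratios (30% of ratios and 5% of levels trimmed) in Python 3.11.15 with numpy 2.4.6. Genes averaging 25 UPM or more were fitted as log2(UPM + 10) in limma 3.58.1 (R 4.3.3) with a mean-variance trend, and adjusted by Benjamini-Hochberg. The pseudocount of 10 shrinks the differences of low genes. Members under the filter had an exact two-sided permutation test over mice, which between healthy organs left the pairing unused. Replicates are mice, and libraries of the same mouse and organ were added.

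Named genes were the 8 members, Ly6c1 as paralog, the 3 genes with the most similar pattern per member, and from the lists every gene called, and otherwise up to 4 examples per list from the 2 highest and 2 lowest differences. Tlr4 was added after its values were seen. The members and lists were chosen with earlier results of these data known. Symbols were matched for 21404 of 23013 gene numbers, and rows without one, with 3.39% of units, stayed in totals and tests.

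Blood and lymph node of 6 mice came from the same animals. Deviations from the group means correlated at -0.01, -0.20, 0.05 and 0.17 for H3, H4, H6 and H7 and at -0.28 and -0.05 for S2 and S7. Alternatives were other scalings, pseudocount, filter, trend, libraries as samples, distinct profiles, one title suffix, each mouse left out, the mouse as block, and, chosen after seeing the data, leaving out neutrophil-rich or erythroid-rich barcodes.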

Additional observations from a re-analysis of the deposited data

How the results depend on the processing

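No member was called in blood as reported, and 1 was under total scaling, 3 without the filter, 5 with every library as its own sample, 1 with the suffix 2CIA only, and 0 to 2 with a mouse left out. Between healthy lymph node and blood 0 members were called as reported, 2 without the filter, 2 with libraries as samples, 1 with distinct profiles, 1 with the mouse as a replicate block, and 0 to 2 with a mouse left out. Libraries as samples and no filter change the number of samples or genes by construction. For the others the cause was not tested. Genes of all kinds called in blood numbered 8 as reported and 0 to 25 over the alternatives (0 without S2, with pseudocount 1, without the trend and without either kind of marker-rich barcodes, 2 without H3, 4 without S7, 16 without H4), with 473 at an unadjusted p under 0.05, and the median of all genes was -0.47, against -0.10 with total scaling and -0.61 with median-of-ratios scaling. In the interaction, all genes called numbered 0 as reported (415 at an unadjusted p under 0.05) and 122 without S2 in blood, of which none was a member. Between healthy organs they numbered 2 as reported (787 at an unadjusted p under 0.05), 93 with libraries as samples, 83 without H6 in blood and 36 without H3 in blood, and 10 with the replicate block, but 0 in 7 settings (pseudocount 1, 2CIA only, without erythroid-rich barcodes, without H7 in blood, and without H3, H4 or H6 in lymph node). The sign of Lyz2 in lymph node (-0.35) turned to 0.12 with distinct profiles, 0.17 with suffix 2CIA only, 0.14 without erythroid-rich barcodes, and with a mouse left out it ran from -1.16 to 0.17. That of Ms4a6c between healthy lymph node and blood (0.11) turned to -0.07 with distinct profiles and -0.08 with 2CIA only, and ran from -0.02 to 0.29 with a mouse left out.

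In single-mouse organs, members over 2-fold lower in CIA spleen went from 1 to 0 with median-of-ratios scaling, over 2-fold higher in CIA thymus from 1 to 2 with pseudocount 1, higher in CIA joint from 4 to 1 and lower from 0 to 2 with total scaling and to 1 with pseudocount 1, and in skin higher from 0 to 1 and lower from 1 to 2 with pseudocount 1 and with distinct profiles. For blood the replicate numbers belong to different animals and share only a number: with that number as a replicate block, 0 members and 0 genes were called. No paired analysis was possible for lymph node CIA against healthy because the groups share 1 number. With the mouse as a replicate block, 0 members were called in the interaction and 1 between healthy organs (Lyz2), and it changed no other call. The depth of a mouse, its few barcodes and the thinning of rare genes limit what a listed 0 can show.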
